A study of Mus musculus with 16 samples.

Results

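The 38 Hox genes described here are those of the HoxA, HoxB, HoxC and HoxD clusters that were chosen by symbol from a table of 27807 genes. The rule of choice used no values, but earlier results of these data were known when it was made. There are 10 of HoxA, 10 of HoxB, 9 of HoxC and 9 of HoxD. Expression was measured by sequencing of polyadenylated RNA in 16 libraries from mouse ES cells and from the embryoid bodies (EBs) grown from them. The groups are 8, wild-type (WT) and Taf4a-/- (KO) at each of 4 stages, with 2 libraries per group. ES cells are undifferentiated cells on MEF feeders, EB4 are EBs before retinoic acid (RA), EB5 are EBs early in RA treatment and EB8 are EBs later in it, labelled as neural precursor cells. The protein of Taf4a belongs to TFIID, the general factor that carries the TATA-binding protein to promoters. KO lines are homozygous for the null allele in every cell and at every stage, and were derived from blastocysts of crosses between heterozygous mice. The methods name 2 independent lines of each genotype, so that the 2 libraries of a group stand for few lines, and the p-values measure the spread between such libraries.

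Hox genes encode homeodomain transcription factors that give cells their position along the body axis. They lie in clusters, and the number in a gene's name, the paralogue number, gives its place in the cluster. Genes of low number lie at the 3′ end, are switched on first and mark the hindbrain and neck, whereas genes of high number lie at the 5′ end, come on later and mark trunk, lumbar and tail levels. This ordered activation is called colinearity. RA opens the clusters from the 3′ side, through RA receptors that bind as a pair with an RXR partner to repeats of a short motif in the DNA. In neural cells differentiating in RA, Hox genes therefore report how far towards the tail the cells have been patterned.

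The classical RA receptor site is a pair of short motifs, in the same orientation with 5 bases between them, called DR5. A search of the cluster spans on both strands for any such pair of motifs, spelled AGGTCA or, as variants of it, GGGTCA or else AGTTCA or lastly GGTTCA, found 4 DR5 matches of 17 bases in build NCBI37 of the mouse genome. The 3 shown here are printed because they lie at corresponding places in HoxA, HoxB and HoxD, in an intron of the paralogue 3 gene, outside annotated exons and beyond the 3′ end of the paralogue 4 gene. The distances from that end are 14122 bp to Hoxa4, 19598 bp to Hoxb4 and 12380 bp to Hoxd4. Each is given 5′ to 3′ on the strand on which its cluster is transcribed, with 40 bases on either side, and capitals mark both motifs and their spacer.
HoxA, chr6:52125492-52125588, minus strand: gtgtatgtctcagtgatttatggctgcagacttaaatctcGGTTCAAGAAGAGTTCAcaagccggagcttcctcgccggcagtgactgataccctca
HoxB, chr11:96202510-96202606, plus strand: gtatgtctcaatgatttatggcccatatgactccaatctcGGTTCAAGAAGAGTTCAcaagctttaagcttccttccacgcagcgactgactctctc
HoxD, chr2:74579557-74579653, plus strand: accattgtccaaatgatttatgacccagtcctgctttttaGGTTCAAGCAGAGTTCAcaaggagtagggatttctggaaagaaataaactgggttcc
The 17 bases of the motif are identical in HoxA and HoxB, and the HoxD copy has 1 mismatch to them, in the spacer. Over the whole 97 bases, without gaps, 48 positions are identical between HoxA and HoxB, 47 between HoxA and HoxD and 31 in all 3. The fourth match lies in HoxB, 14582 bp downstream of Hoxb13 and on the opposite strand, and HoxC holds none. Such letters are common. Of stretches of the same length as the cluster on the same chromosome, 26.6% hold at least 1 DR5 for HoxA, 47.4% for HoxB, 32.0% for HoxC and 28.0% for HoxD. For HoxB, which holds 2, 13.9% of such stretches hold at least 2. The density was 0.825 per 100 kb in the 4 spans and 0.353 per 100 kb over the 4 chromosomes. Pairs with 2 bases between them, called DR2, went the other way, with 2 matches, 0.412 per 100 kb in the spans and 1.09 per 100 kb over the chromosomes. Binding was not measured here, so these matches are a description of the sequence.

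The spans from the first to the last member are chr6:52112350-52210874 for HoxA, chr11:96055630-96229570 for HoxB, chr15:102751534-102867274 for HoxC and chr2:74506367-74603200 for HoxD. Values are normalised read counts, that is, the reads of a gene scaled to make libraries comparable. In each library they came in whole steps of 1 read, which gave back the reads, and the depth ran from 22442118 to 40711826 reads per library. All ES libraries were deeper than all EB libraries, so that for ES cells the stage cannot be told apart from a sequencing run of their own. The targeted gene does not check the labels. Taf4a ran from 1590.9 to 1959.6 normalised counts in WT and from 1972.8 to 2400.0 in KO, and a count per gene does not resolve the deleted exons. Chromosome 11, which holds HoxB, stood apart in KO replicate 1. The median of its tested genes, relative to each gene's mean over the libraries, was 0.18 to 0.27 on the log2 scale in that replicate at the 4 stages, and -0.13 to 0.03 in all other libraries. Subtracting the level of each chromosome left the counts of Hox genes called at EB5 and at EB8, given below for KO against WT, as they were.

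Differences are on the log2(normalised count + 1) scale and were tested with limma over all 16 libraries. A gene was tested if its mean was at least 10 normalised counts, which 31 of the 38 Hox genes and 16124 genes in all reached. A difference is called if its Benjamini-Hochberg adjusted p over the 16124 genes was under 0.05. The 7 Hox genes not tested were Hoxa11, Hoxa13, Hoxc11, Hoxc12, Hoxd10, Hoxd11 and Hoxd12, all of high paralogue number. The heatmap of all libraries shows the members before any test.

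**Figure D1:**
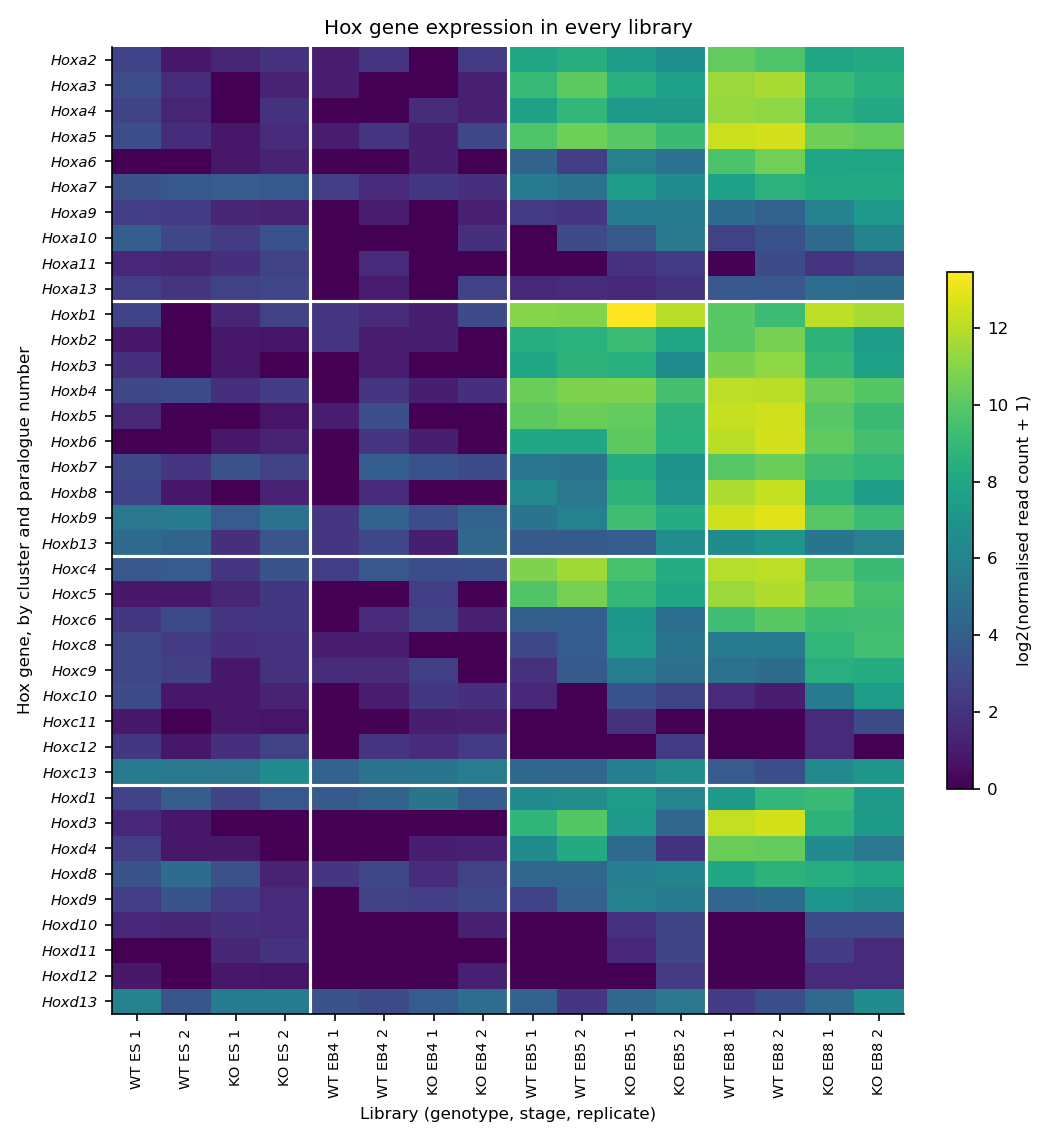
Each row is a Hox gene, ordered by cluster and paralogue number, each column a library, and the colour gives log2(normalised read count + 1). The rows are dark in ES cells and EB4, and at EB8 the KO columns are brighter than the WT columns for genes such as Hoxb1 and Hoxc8 and darker for genes such as Hoxb9 and Hoxd3.

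Hox genes were nearly silent before RA in both genotypes. At EB4, 28 of the 38 genes were at 3 reads or fewer in each WT library, and 28 and 26 in the KO libraries. Summed over the 38 genes and set per kb of exon, the level came to 30.7 and 68.4 normalised counts per kb at EB4 in WT, against 67.9 and 87.1 in KO. In ES cells it was 133.9 and 99.0 in WT and 74.5 and 119.8 in KO, so that the groups overlapped. In ES cells 61.8% to 75.1% of the summed per-kb level came from paralogues 9 to 13. Hoxc13, known for its role in hair and nails, stood at 47.3 and 40.7 in WT ES cells and 39.8 and 90.8 in KO. Hoxd13, which patterns digits, stood at 61.0 and 11.2 in WT and 46.5 and 46.5 in KO. Hoxb9, a gene of thoracic levels, stood at 40 and 47 in WT and 13.3 and 32.2 in KO. Feeder fibroblasts also express Hox genes, and the summed level of 10 fibroblast markers was 1080.3 to 2753.0 in WT ES cells and 217.5 to 512.9 in KO, with Fap at 0 in both WT libraries. The part of feeders in the ES values was not tested. No Hox gene was called in KO against WT in ES cells, where 0% of all tested genes were called in either direction. Of the 31 tested, 2 had an unadjusted p under 0.05, as against 1846 of all 16124, and edgeR and DESeq2 called none. At EB4 none was called either, as against 2.75% of all tested genes higher and 3.37% lower in KO, and again 2 had an unadjusted p under 0.05. At EB4 edgeR called none of the 31 and DESeq2 called 1, as lower, where DESeq2 called 904 of all 16124 genes higher and 1173 lower. The KO libraries both lay above the WT libraries for 5 of the 31 at EB4, as against 25.3% of all tested genes, and below for 2, as against 26.6%. In ES cells they lay above for 4, as against 19% of all, and below for 12, as against 20.7%.

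The 3′ and middle genes of the clusters came on between EB4 and EB5, with the start of RA, in both genotypes. From EB4 to EB5, 18 of the 31 tested Hox genes rose in WT and none fell, as against 2.59% of all tested genes higher and 1.14% lower. In KO 23 rose and none fell, as against 1.82% and 0.695%. The 18 of WT were all of paralogue number 8 or below, with 6 of 7 tested genes of paralogues 1 to 3 and 12 of 15 of paralogues 4 to 8, and of 9 tested genes of paralogues 9 to 13 none was called. In KO the counts were 6 of 7, 14 of 15 and 3 of 9, the last being Hoxa9, Hoxb9 and Hoxc9. When only the groups compared were fitted, 14 were called in WT and 13 in KO. Those fits called 136 of all 16124 genes higher and 34 lower in WT, and 68 and 23 in KO. Whether a gene rose differently in the genotypes is the subject of the difference between the changes, and there no Hox gene was called from EB4 to EB5, as against 0% of all tested genes in either direction. The unadjusted p was under 0.05 for 11 of the 31 and for 478 of all 16124 genes, and edgeR and DESeq2 called none.

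Hoxb1, which gives rhombomere 4 of the hindbrain its identity, rose in WT from 3.3 and 2.1 normalised counts at EB4 to 2095.6 and 1916.2 at EB5. In KO it went from 1.2 and 7.7 to 11217.0 and 4129.9. Both genotypes thus rose by orders of magnitude, and both KO libraries ended above both WT libraries. The log2 change was 9.09 ± 0.84 (SE) in WT and 10.62 ± 0.84 in KO (adjusted p = 8.43e-05 and 4.34e-05). Hoxc5, a gene of cervical levels, was at 0 in both WT EB4 libraries and reached 904.3 and 1638.4 at WT EB5, at least 387-fold higher than 3 reads in a library would give. In KO it went from 4.7 and 0 to 499.6 and 260.8, below both WT libraries. Hoxd3, which patterns the first vertebrae, was at 0 in all 4 EB4 libraries, and rose at least 212-fold in WT and at least 22.2-fold in KO. Its EB5 values were 444.1 and 951.0 in WT and 149.8 and 20.4 in KO, with no overlap between the genotypes. Such bounds cover counting error only, since PCR copies of a molecule are counted as separate reads.

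**Figure D2:**
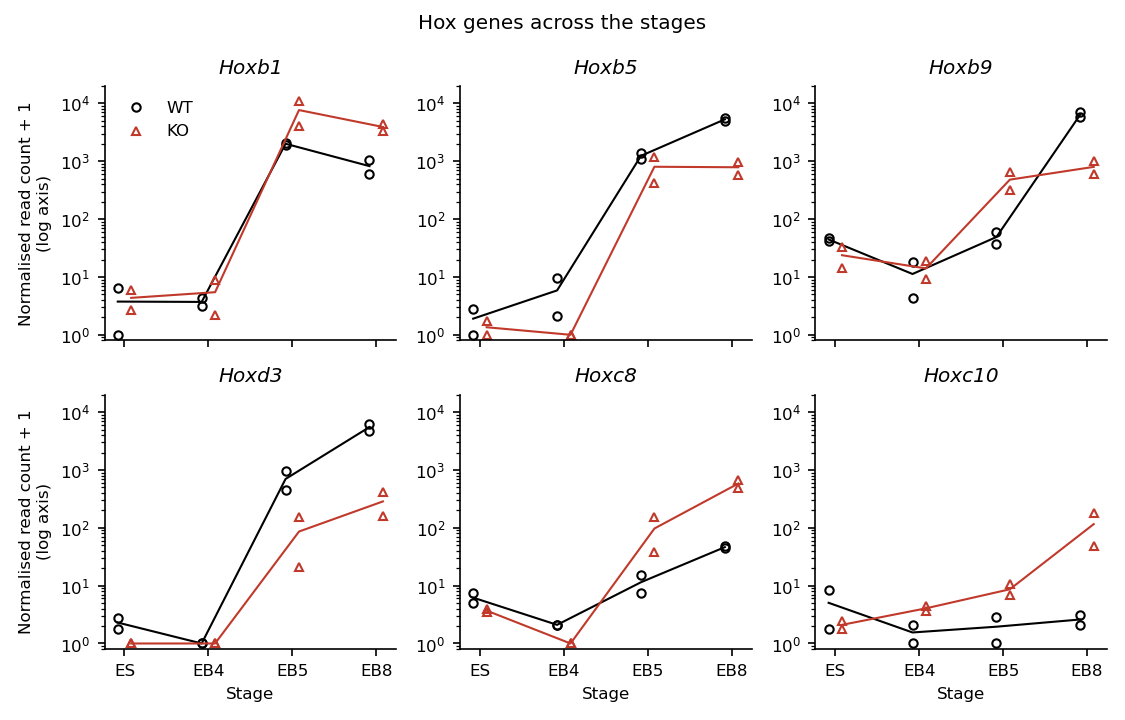
Normalised read counts plus 1 on a log axis for 6 Hox genes at the 4 stages. Each point is a library, circles for WT and triangles for KO, and lines join the means of the groups. Hoxb1 is higher in KO at EB5 and EB8, Hoxb5 and Hoxd3 are lower in KO at EB8, Hoxb9 is higher in KO at EB5 and lower at EB8, and Hoxc8 and Hoxc10 are higher in KO at EB8.

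At EB5 the Hox genes called higher in KO had paralogue numbers of 8 or above and those called lower had numbers of 4 or below. Of the 31 tested Hox genes 3 were higher in KO, namely Hoxa9, Hoxb9 and Hoxc8, as against 2.17% of all tested genes. Lower in KO were 3, namely Hoxc4, Hoxd3 and Hoxd4, as against 2.17% of all. The median difference was 1.48 over the 31 genes and -0.0080 over all genes. The KO libraries lay above both WT libraries for 18 of the 31, as against 26.7% of all tested genes, below both for 7, as against 28.1%, and the groups overlapped for 6. The fit with a pseudocount of 0.1 called 1, and neither the fit of only the groups compared nor an adjusted p threshold of 0.01 called any. DESeq2 called 12 as higher and 4 as lower, as against 812 higher and 907 lower of all 16124 genes. The 6 calls also rest on single libraries: 1 was left without WT EB5 replicate 1, 0 without WT EB5 replicate 2, 3 without KO EB5 replicate 1 and 0 without KO EB5 replicate 2.

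The KO EB5 libraries differed from each other more than the WT ones. Among the 29 Hox genes with a KO EB5 mean of at least 20, replicate 1 was the higher for 22, with a median ratio of replicate 1 to replicate 2 of 1.92. For the 10 of HoxB the ratio was 2.78 and replicate 1 was the higher for 9. In WT EB5 the ratio was 0.778 over 21 genes. The 8 pluripotency markers moved the other way, with a sum of 44505.7 in KO replicate 1 and 73282.8 in KO replicate 2, and their part in this was not tested. In WT EB5 the sum was 9757.9 to 13904.1. Against WT, 4 of the 8 were higher in KO (Nanog, Esrrb, Tfcp2l1 and Dppa5a), as against 2.17% of all tested genes, with none at 0. Of 7 tested neural precursor markers 2 were lower in KO at EB5, namely Pax6 and Msi1, as against 2.17% of all tested genes. The part of these markers in the Hox differences at EB5 was not tested.

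Among the genes higher in KO at EB5, Hoxa9, expressed from the trunk backwards, was at 3.8 and 3.3 in WT, against 43.6 and 43.6 in KO. The difference was 3.30 ± 0.65 (SE, adjusted p = 0.0207). Hoxb9 stood at 36.7 and 59.3 in WT and 642.8 and 317.1 in KO. Its difference was 3.25 ± 0.66 (adjusted p = 0.0230), or 10.00-fold. Both KO libraries lay well above the WT libraries for each gene. Hoxc8, a gene of brachial to thoracic levels, stood at 6.6 and 14.3 in WT and 155.5 and 36.8 in KO, with a difference of 2.84 ± 0.66 (adjusted p = 0.0347). The KO libraries of Hoxc8 lay far apart but both above WT.

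Among the genes lower in KO at EB5, Hoxc4, of the hindbrain and neck, stood at 1832.1 and 2955.1 in WT and 737.6 and 325.8 in KO. Its difference was -2.24 ± 0.55 (adjusted p = 0.0417), or 4.50-fold. Hoxd4, which marks the hindbrain behind rhombomere 6, stood at 89.4 and 298.7 in WT and 22.8 and 2.9 in KO, and differed by -4.09 ± 0.89 (adjusted p = 0.0276). Hoxd3 differed by -3.52 ± 0.79 (adjusted p = 0.0310). Of the exon sequence of Hoxd4 67.4% is shared with Hoxd3 on the same strand, so the counting could not assign all reads of this pair to 1 gene and the 2 calls are not independent. Hoxb1 missed the threshold, with a difference of 1.76 ± 0.84 (adjusted p = 0.260).

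From EB5 to EB8 Hox genes of paralogue numbers 3 to 9 rose further in WT, and in KO no change was called. In WT 12 of the 31 tested Hox genes rose and none fell, as against 5.82% of all tested genes higher and 4.62% lower. They were Hoxa4, Hoxa5, Hoxa6, Hoxa7 and Hoxa9, Hoxb6, Hoxb7, Hoxb8 and Hoxb9, Hoxc6, and Hoxd3 and Hoxd8. Without WT EB8 replicate 2 the 12 became 6. Other settings gave 6 with a pseudocount of 0.1, 20 with a pseudocount of 5, 21 with DESeq2 and 20, of which 1 lower, in the fit of only the groups compared. In that order these settings called 787, 1056, 1397 and 798 of all 16124 genes higher and 735, 725, 1114 and 371 lower. In KO 0 of 31 were called, as against 0.428% of all tested genes higher and 0.310% lower. In that comparison 9 had an unadjusted p under 0.05, as did 2065 of all genes, and edgeR called 0 and DESeq2 7, all as higher. Over all genes edgeR called 54 higher and 29 lower, and DESeq2 360 and 301. Without KO EB5 replicate 1, 1 was called. The changes were 28 up and 3 down in each genotype, with a median of 2.10 in WT and 0.94 in KO.

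Of the 31 tested, Hoxb9, Hoxa6 and Hoxb8 rose most in WT. Hoxb9 went from 36.7 and 59.3 to 5724.2 and 7120.3 normalised counts in WT, a change of 7.07 ± 0.66 (adjusted p = 9.51e-05). Hoxa6, which patterns thoracic vertebrae, went from 18.8 and 4.4 to 806.5 and 1522.5, a change of 6.75 ± 0.68 (adjusted p = 1.35e-04). Hoxb8, active in the brachial spinal cord, went from 79.0 and 39.5 to 3580.9 and 4993.2, a change of 6.21 ± 0.84 (adjusted p = 8.30e-04). For these 3 genes no EB8 library overlapped an EB5 library in WT. In KO the same genes changed by 0.77 ± 0.66 (adjusted p = 0.710), 2.47 ± 0.68 (adjusted p = 0.130) and 0.26 ± 0.84 (adjusted p = 0.949).

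The difference between these changes was itself tested, and 2 Hox genes passed, Hoxb8 and Hoxb9, both as a smaller rise in KO. That compares with 0.682% of all tested genes in this direction and 0.0992% in the other. For Hoxb8 (ENSMUSG00000056648, chr11:96143219-96146639, plus strand) the difference of the changes was -5.95 ± 1.18 (adjusted p = 0.0399), and for Hoxb9 (ENSMUSG00000020875, chr11:96132771-96137909, plus strand) it was -6.29 ± 0.94 (adjusted p = 0.0126). In both, KO started above WT at EB5 and ended below it at EB8. Of the exons of Hoxb8 40.4% are shared with Hoxb7, so part of its reads is uncertain. A single call was left without WT EB5 replicate 2, KO EB5 replicate 2, WT EB8 replicate 1 or KO EB8 replicate 1, and 0 were left without WT EB5 replicate 1, KO EB5 replicate 1, WT EB8 replicate 2 or KO EB8 replicate 2.

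At EB8 most of the Hox genes differed between the genotypes, mostly downwards for genes of low and middle number and upwards for genes of high number. Of the 31 tested, 14 were lower in KO, as against 12.5% of all tested genes, and 6 were higher, as against 10.4%. By class, lower were 4 of 7 tested of paralogues 1 to 3, 9 of 15 of paralogues 4 to 8 and 1 of 9 of paralogues 9 to 13. Higher were 0, 1 and 5, where Hoxc10, 1 of the 5, reached a mean of 10 only through its KO EB8 libraries. The median difference was -1.63 over the 31 and -0.03 over all genes. The KO libraries lay below both WT libraries for 19 of the 31, as against 33.5% of all tested genes, above both for 9, as against 30.4%, and the groups overlapped for 3. These 3 were Hoxa7, Hoxd1 and Hoxd8, with means of 297.8, 317.0 and 342.4 in WT, against 296.4, 341.0 and 297.2 in KO. In such bulk samples fewer cells that use a gene and less RNA of it per cell cannot be told apart. The 20 calls became 10 without WT EB8 replicate 1, 7 without WT EB8 replicate 2 and 5 without KO EB8 replicate 2. Hoxc8, Hoxc10 and Hoxc13, higher in KO, and Hoxd3 and Hoxd4, lower, passed in every such fit and every other alternative that tested them. Hoxc10 and Hoxc13, with means of 16.7 and 49.6 over the libraries, were not tested under the filter of a mean of at least 50.

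In HoxA the switch came between paralogues 6 and 9. Hoxa3, a gene of the neck and pharynx, stood at 2767.1 and 3468.5 in WT EB8, against 543.4 and 376.0 in KO, a difference of -2.77 ± 0.67 (adjusted p = 0.0114). Of the exons of Hoxa3 33.0% are shared with another annotated gene on the same strand and 25.0% on the opposite strand, so part of its reads is uncertain. Hoxa4, of cervical levels, stood at 2594.8 and 2296.5 in WT and 402.0 and 281.2 in KO, a difference of -2.86 ± 0.66 (adjusted p = 0.00914). Hoxa5, which patterns the neck and the lung, stood at 5253.7 and 5937.6 in WT and 1487.6 and 1247.4 in KO, a difference of -2.04 ± 0.64 (adjusted p = 0.0380). All WT libraries of these genes were several-fold above all KO libraries. Hoxa6 stood at 806.5 and 1522.5 in WT and 241.6 and 246.1 in KO, with a difference of -2.18 ± 0.68 (adjusted p = 0.0369). Hoxa2, which sets the identity of the second branchial arch, stood at 1212.9 and 871.4 in WT and 247.9 and 292.9 in KO, and its difference of -1.93 ± 0.76 missed the threshold (adjusted p = 0.0881). On the other side of the switch, Hoxa9 stood at 25.2 and 16.9 in WT and 62.2 and 145.9 in KO, a difference of 2.15 ± 0.65 (adjusted p = 0.0321). Hoxa10, of lumbar levels, stood at 5.3 and 9.5 in WT and 23.2 and 62.8 in KO, a difference of 2.28 ± 1.05 that missed the threshold (adjusted p = 0.140). The KO libraries of both genes were higher and uneven, with replicate 2 above replicate 1.

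In HoxB the whole block from Hoxb2 to Hoxb9 lay below WT at EB8, and only Hoxb1 lay above. Hoxb1 (ENSMUSG00000018973, chr11:96227066-96229570, plus strand) stood at 1043.8 and 601.4 in WT and 4477.7 and 3351.2 in KO. The mean was 4.76-fold higher in KO, but the difference of 2.29 ± 0.84 did not reach the threshold (adjusted p = 0.0698). Hoxb2, which acts beside Hoxb1 in the hindbrain, stood at 1002.9 and 1633.7 in WT and 416.8 and 179.0 in KO, a difference of -2.22 ± 0.65 (adjusted p = 0.0269). Hoxb3 stood at 1732.7 and 2338.8 in WT and 522.3 and 199.2 in KO, a difference of -2.64 ± 0.80 (adjusted p = 0.0318). The neighbours Hoxb1 and Hoxb2 thus lay on opposite sides of WT, without overlap of the libraries in either gene. Hoxb4, of the posterior hindbrain, stood at 4419.9 and 4337.8 in WT and 1342.0 and 968.3 in KO, a difference of -1.94 ± 0.62 (adjusted p = 0.0396). Hoxb5 stood at 4917.7 and 5692.0 in WT and 987.5 and 584.8 in KO, a difference of -2.80 ± 0.74 (adjusted p = 0.0168). Hoxb6 stood at 4241.4 and 5901.6 in WT and 1143.7 and 703.1 in KO, a difference of -2.48 ± 0.69 (adjusted p = 0.0219).

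Hoxb8 fell furthest behind in this cluster. It stood at 3580.9 and 4993.2 in WT EB8, against 429.4 and 177.9 in KO, 14.1-fold lower, with a difference of -3.93 ± 0.84 (adjusted p = 0.00567). Hoxb9 stood at 5724.2 and 7120.3 in WT and 997.0 and 599.7 in KO, 8.04-fold lower, with a difference of -3.04 ± 0.66 (adjusted p = 0.00651). Hoxb9 was thus the one gene called in opposite directions at the 2 stages, higher in KO at EB5 and lower at EB8. Hoxb7 stood at 996.6 and 1372.2 in WT and 645.7 and 486.8 in KO, and its difference of -1.06 ± 0.96 was not called (adjusted p = 0.464). Hoxb13, the distant gene at the 5′ end that acts in the tail, stood at 92.4 and 128.1 in WT and 35.9 and 56.5 in KO, and was not called either (-1.25 ± 1.03, adjusted p = 0.413). Hoxb2 and Hoxb3 share 49.4% and 37.9% of their exons with the antisense transcript Hoxb3os. The libraries do not mark strand, so reads of such a pair cannot be told apart.

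In HoxC 1 of the 3 genes from Hoxc4 to Hoxc6 was called lower in KO at EB8, and the 4 tested genes from Hoxc8 on were called higher. Hoxc4 stood at 3966.3 and 4405.6 in WT and 983.3 and 584.8 in KO, a difference of -2.46 ± 0.55 (adjusted p = 0.00765). Hoxc5 stood at 2793.3 and 3735.4 in WT and 1433.8 and 754.2 in KO, a difference of -1.63 ± 0.70 that was not called (adjusted p = 0.115). Hoxc6, which marks brachial motor neurons, stood at 651.1 and 1017.5 in WT and 625.7 and 645.5 in KO, and its difference of -0.36 ± 0.79 was not called (adjusted p = 0.784). From Hoxc8 on the order was turned round. Hoxc8 (ENSMUSG00000001657, chr15:102821053-102824698, plus strand) stood at 47.3 and 43.4 in WT and 482.2 and 680.7 in KO, 12.8-fold higher, with a difference of 3.63 ± 0.66 (adjusted p = 0.00225). Hoxc9, which gives thoracic motor neurons their identity, stood at 32.6 and 26.5 in WT and 342.9 and 322.8 in KO, a difference of 3.46 ± 0.83 (adjusted p = 0.0110).

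Hoxc10 and Hoxc13 carried this difference to the 5′ end. Hoxc10 (ENSMUSG00000022484, chr15:102797227-102802324, plus strand), of lumbar levels, was at 2.1 and 1.1 in WT, which are 3 reads in all, and at 47.5 and 182.2 in KO. The ratio of the means was 71.8, with an exact 95% interval of 24.4 to 354 that covers counting error only. The difference of 5.22 ± 0.92 (adjusted p = 0.00184) was the highest of the 31. Without its KO EB8 libraries Hoxc10 would not have reached the mean of 10 needed for a test, so this rank partly follows from the filter. Hoxc13 (ENSMUSG00000001655, chr15:102751534-102759245, plus strand) stood at 13.7 and 8.5 in WT and 83.4 and 137.4 in KO, a difference of 3.20 ± 0.53 (adjusted p = 0.00131). Hoxc13 did not start from silence, since it gave reads in every library from ES cells on. Hoxc11 and Hoxc12, between them, gave at most 7.5 normalised counts in any library and were not tested.

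Of the 31 tested genes, Hoxd3 and Hoxd4 of HoxD, which share exons, lay furthest below WT at EB8. Over the 6 tested genes of HoxD 3 differences were above 0 and 3 below, with a median of -0.05. Hoxd3 (ENSMUSG00000079277, chr2:74549986-74586331, plus strand) stood at 4788.5 and 6233.0 in WT EB8, against 409.4 and 159.8 in KO, 19.4-fold lower, with a difference of -4.41 ± 0.79 (adjusted p = 0.00206). Hoxd4 (ENSMUSG00000042464, chr2:74560035-74567217, plus strand) stood at 1382.0 and 1258.9 in WT and 89.7 and 39.4 in KO, 20.5-fold lower, with a difference of -4.45 ± 0.89 (adjusted p = 0.00402). The KO libraries of both lay far below the WT libraries. Hoxd9, a trunk and limb gene, stood at 20 and 26.5 in WT and 130.8 and 100.1 in KO, and its difference of 2.27 ± 0.81 missed the threshold (adjusted p = 0.0626). Hoxd13 stood at 4.2 and 8.5 in WT and 23.2 and 89.5 in KO, a difference of 2.74 ± 0.91 (adjusted p = 0.0465), and its KO values lay far apart. Of the genes not tested, Hoxd10, Hoxd11 and Hoxd12 were at 0 in both WT EB8 libraries and at 7.4 and 7.5, 4.2 and 2.1, and 2.1 and 2.1 in KO. Hoxa13 stood at 11.6 and 11.6 in WT EB8, against 28.5 and 25.6 in KO, and Hoxa11 at 0 and 7.4 in WT and 3.2 and 5.3 in KO.

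**Figure D3:**
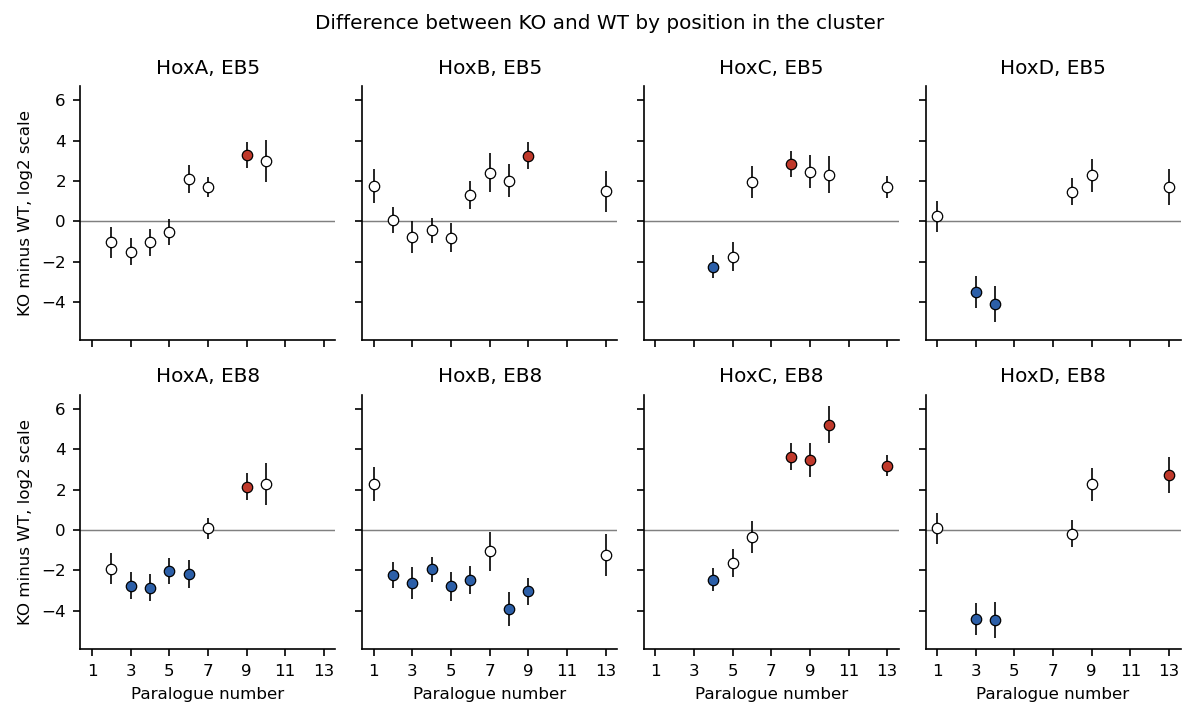
Difference between KO and WT on the log2(normalised count + 1) scale against paralogue number, for the 31 tested Hox genes, by cluster at EB5 (top) and EB8 (bottom). Points are the limma estimates and bars their standard errors, with red for called as higher in KO, blue for called as lower and open for not called. In HoxA, HoxC and HoxD genes of number 5 or below lie at or below 0 except Hoxd1 and those of number 9 or above lie above it, and in HoxB at EB8 Hoxb1 alone lies above 0.

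Across the tested genes the difference rose with paralogue number at EB5 in each cluster. Spearman's rho was 0.929 over 8 genes of HoxA, 0.515 over 10 of HoxB, 0.5 over 7 of HoxC and 0.714 over 6 of HoxD. At EB8 it was 0.714, -0.321, 0.750 and 0.600. HoxB was thus the cluster in which the order was not kept at EB8. These are descriptions, without a test, since the genes of a cluster share the libraries and some share exons.

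Summed per kb of exon, the 38 genes gave more signal in WT EB8 than in any other group. The sums were 4014 and 5644 normalised counts per kb in WT EB5, against 8704 and 3593 in KO EB5, where the groups overlapped. At EB8 they were 20245 and 24329 in WT and 7789 and 5740 in KO, with no overlap. Paralogues 4 to 8 gave most of the WT EB8 sum, with 73.0% and 72.8%, as against 55.3% and 55.5% in KO. The share of paralogues 1 to 3 was 15.6% and 15.4% in WT EB8, against 35.5% and 32.3% in KO. At EB5 that share was already 61.8% and 55.6% in KO as against 34.7% and 28.3% in WT. Per kb, Hoxb1 alone gave 4831 and 1779 in KO EB5 and was the highest member in both KO libraries at EB5 and at EB8. In WT EB8 the highest member was Hoxa5, with 2799 and 3163 per kb, followed by Hoxb9 with 2224 and 2766 and Hoxb6 with 2043 and 2843, and these last overlapped each other. Paralogues 9 to 13 gave 11.4% and 11.8% of the sum in WT EB8, against 9.2% and 12.2% in KO. Within that class Hoxb9 made up nearly all of the WT signal, with a mean of 2495 per kb, whereas in KO Hoxb9 with 310 stood beside Hoxc9 with 137, Hoxc10 with 60.2 and Hoxd9 with 52.9.

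**Figure D4:**
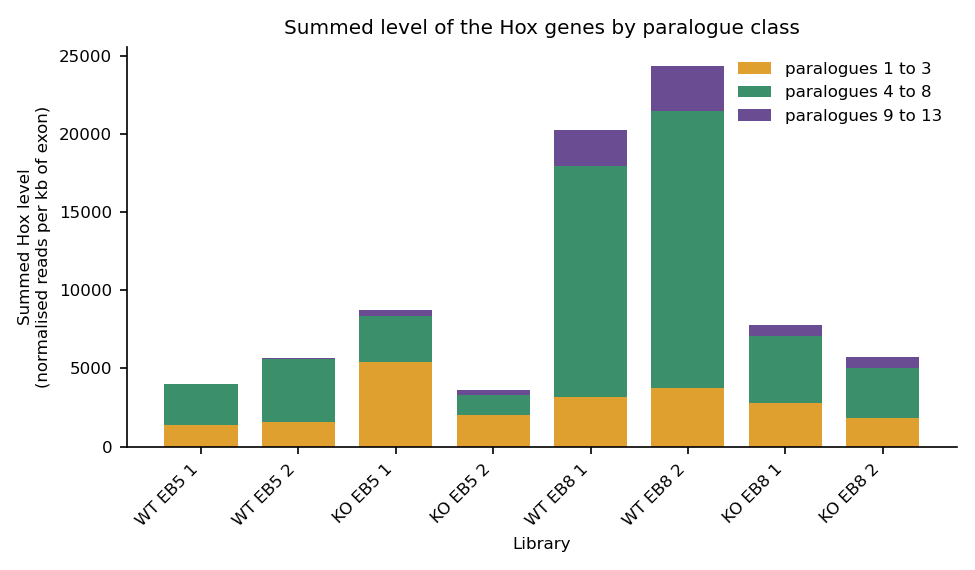
Summed level of the 38 Hox genes, in normalised reads per kb of exon, in each EB5 and EB8 library, divided by paralogue number. The WT EB8 libraries reach 20245 and 24329 and consist mostly of paralogues 4 to 8, while the KO EB8 libraries reach 7789 and 5740 with a larger share of paralogues 1 to 3.

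Other transcripts inside the clusters were read out as well. The spans hold 19 further annotated genes of the table, mostly non-coding, of which 12 were tested. Of a list of 16 known non-coding RNAs of the clusters 3 were in the table, and Hoxb3os was the 1 tested. In KO at EB8, 6 of the 12 were lower, as against 12.5% of all tested genes, and 1 higher, as against 10.4%, with a median difference of -2.03, and at ES, EB4 and EB5 none was called by limma. Among the lower genes, 1700109F18Rik, Gm11536 and Gm14424 would not have reached a mean of 10 without the WT EB8 libraries, where they are high. The lower genes 1700109F18Rik, 5730446D14Rik and 5730596B20Rik share exon sequence with Hoxd3 or Hoxa3 on the opposite strand. The libraries do not mark strand, so these calls may not be independent of those Hox genes. The antisense RNA 1700109F18Rik, which overlaps Hoxd3 and crosses the start of that gene, stood at 787.6 and 671.3 in WT EB8, against 63.3 and 26.6 in KO, a difference of -4.11 ± 0.76 (adjusted p = 0.00264). The transcript 6720416L17Rik, antisense between Hoxd3 and Hoxd1, stood at 1016.5 and 1101.1 in WT and 86.5 and 55.4 in KO, a difference of -3.91 ± 0.71 (adjusted p = 0.00225). Both were lower, as were Hoxd3 and Hoxd4. Hoxd8, which lies within the span of 1700109F18Rik, and Hoxd1, beyond 6720416L17Rik, had overlapping libraries at EB8. Hoxb3os stood at 2829.0 and 2762.3 in WT and 694.2 and 635.9 in KO, with a difference of -2.07 ± 0.79 that was not called (adjusted p = 0.0779). The gene higher in KO was Gm53, in the gap between Hoxb9 and Hoxb13, with 25.2 and 41.3 in WT and 183.6 and 181.1 in KO (2.46 ± 0.71, adjusted p = 0.0252).

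Outside the clusters the flanking genes went both ways. Of 15 tested flanking genes 4 were higher and 4 lower in KO at EB8, as against 10.4% and 12.5% of all tested genes. Skap2, a signalling adaptor next to HoxA, stood at 2915.1 and 3022.8 in WT EB8, against 1255.5 and 1299.6 in KO, a difference of -1.22 ± 0.17 (adjusted p = 5.53e-04). Mtx2, a mitochondrial import gene next to HoxD, differed by -0.66 ± 0.18 (adjusted p = 0.0194), much less than Hoxd3 and Hoxd4. Calcoco2, an autophagy receptor on the chromosome of HoxB, went the other way, with 51.5 and 127.1 in WT and 1990.9 and 2169.9 in KO, a difference of 4.66 ± 0.63 (adjusted p = 3.91e-04).

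Hox proteins bind DNA together with cofactors of the Pbx and Meis families. Of 8 tested cofactor genes, 2 were lower in KO at EB4, at EB5 and at EB8, and none was higher. Over all tested genes the share that was lower was 3.37% at EB4, 2.17% at EB5 and 12.5% at EB8. The lower cofactor genes were Pbx2 and Pbx3 at each of these stages. Pbx3 stood at 1893.4 and 3644.3 in WT EB8, against 571.8 and 620.0 in KO, a difference of -2.14 ± 0.27 (adjusted p = 2.95e-04). Pbx2 stood at 5952.1 and 6929.7 in WT EB8, against 3372.0 and 2908.1 in KO, a difference of -1.04 ± 0.16 (adjusted p = 9.98e-04). Both were already lower at EB4, before RA was added, with differences of -1.37 ± 0.27 for Pbx3 and -0.96 ± 0.16 for Pbx2 (adjusted p = 0.0169 and 0.0101). Meis1 and Meis2 were not called at any stage.

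Genes that act on the clusters through RA or as regulators were mixed. Of 15 tested, 5 were lower and 1 higher in KO at EB8, as against 12.5% and 10.4% of all tested genes. At EB5 0 were called, as against 2.17% of all tested genes in each direction, and at EB4 1 was lower, as against 3.37%. Rarb, an RA receptor that RA itself induces, stood at 5797.7 and 7403.0 in WT EB8, against 1461.3 and 1487.1 in KO, a difference of -2.15 ± 0.53 (adjusted p = 0.0123). Cyp26b1, which breaks down RA, stood at 18735.1 and 38733.2 in WT and 4198.1 and 4334.5 in KO, a difference of -2.66 ± 0.78 (adjusted p = 0.0285). Cyp26a1, its relative, stood at 11283.5 and 13264.3 in WT and 16825.1 and 8828.7 in KO, with overlap of the groups. The RA-binding protein gene Crabp1, the retinaldehyde reductase gene Dhrs3 and the RA receptor partner Rxra were the other lower genes, with differences of -4.00 ± 0.51, -1.09 ± 0.34 and -1.10 ± 0.30 (adjusted p = 2.85e-04, 0.0372 and 0.0213). The gene higher in KO was Cdx1, whose product switches on Hox genes of middle and high number in the trunk and tail. It stood at 283.2 and 477.7 in WT EB5, against 2092.5 and 1620.3 in KO (2.32 ± 0.62, adjusted p = 0.0555), and at 37.8 and 101.6 in WT EB8, against 1398.0 and 1156.9 in KO (4.33 ± 0.62, adjusted p = 5.65e-04). Of 15 tested Polycomb and related genes, whose products keep silent clusters closed or open them, 2 were higher in KO at EB8, namely Suz12 (1.18 ± 0.21, adjusted p = 0.00179) and Cbx7 (2.29 ± 0.20, adjusted p = 3.03e-05). Lower were 3, namely Ezh2, Rnf2 and Cbx2, with differences of -0.65, -0.52 and -0.75. Such shares are near those of all tested genes at EB8, 10.4% higher and 12.5% lower.

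The labelled cell type at EB8 was checked against its markers. Of 7 tested neural precursor markers 6 were lower in KO at EB8 (Fabp7, Vim, Pax6, Sox3, Hes5 and Msi1), as against 12.5% of all tested genes. The list summed to 47215.1 to 50874.0 in WT and 8898.4 to 9351.6 in KO. Fabp7 was near 0 in KO, with 3.2 and 1.1 normalised counts. Of 8 pluripotency markers 7 were higher, as against 10.4% of all tested genes. That list summed to 1882.8 to 2191.6 in WT and 32886.3 to 35598.1 in KO, with none at 0. The KO libraries labelled as neural precursor cells were thus low in most of the neural precursor markers. Forebrain and midbrain markers, of cells that lack Hox expression, gave sums of 441.2 to 799.5 in WT EB8 and 612.5 to 677.4 in KO, with 0 of 6 called and Six3 under 4 counts in both genotypes. Of the fibroblast list 0 of 8 tested genes were called at EB8, as against 10.4% of all tested genes higher and 12.5% lower. The mesoderm list had 1 of 6 higher in KO (Tcf15), and the endoderm list had 2 of 4 lower (Sox17 and Foxa2). The neural crest list had 1 of 6 higher (Sox10) and 2 lower (Tfap2b and Foxd3). In that order the list sums were 2446.7 to 3211.3, 924.1 to 2185.3, 1531.0 to 1805.2 and 1523.8 to 2300.7 in WT. In KO they were 1517.2 to 3801.6, 2039.9 to 2072.1, 608.2 to 667.9 and 1153.3 to 1418.9. At 0 in both libraries were Msgn1, Mesp1 and Cer1 in WT and Cer1 in KO. The part of cell composition in the Hox differences was not tested.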

How the data were processed

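Polyadenylated RNA was sequenced in 16 libraries, 2 for each of 8 groups, from TruSeq libraries that do not keep strand. Per the submitters' processing notes the tools were CASAVA 1.7 and 1.8, TopHat2 2.0.10, HTSeq 0.5.4p3 and DESeq2 1.0.19 with build mm9, and the strand setting of the counting is not given in the sources used here. The deposited signal is the count per gene after the authors scaled each library by its DESeq2 size factor. All values (100%) were whole multiples of a library's step within 0.01, and the recovered reads were used for edgeR and DESeq2 as alternatives. The number of columns not used was 0.

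Genes with a mean of at least 10 were tested with limma 3.58.1 (R 4.3.3) on log2(value + 1), with 1 mean per group, all 16 libraries and a trend in the variance, and with Benjamini-Hochberg adjustment over 16124 genes. A fold is a ratio of group means, or a lower bound against 3 reads in a library where a group was at 0. On the recovered reads edgeR 4.0.16 called 363 genes higher and 448 lower in KO at EB4, 298 and 305 at EB5, 1622 and 1924 at EB8 and 0 in ES cells. The tests were tried on simulated data. Annotation was matched by identifier for 27603 genes and not for 204, and sequences and coordinates are from the GENCODE M1 annotation and the NCBI37 genome, the assembly of mm9. Alternatives were other pseudocounts, filters, scalings and thresholds, edgeR 4.0.16, DESeq2 1.42.0, the groups compared alone, replicate blocks, chromosome levels subtracted and each library left out. The text names each tested Hox gene that was called or whose libraries did not overlap at EB8, and genes of the lists, with examples chosen after their values were seen. The Hox genes and the marker and pathway lists were chosen with earlier results of these data known. Comparisons of a stage share its libraries. A gene of the cofactor list is not reported here.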

Additional observations from a re-analysis of the deposited data

Results flagged for a closer look

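The change from EB5 to EB8 differed between KO and WT for 2 Hox genes by limma's test of the difference itself. For Hoxb9 the difference of the log2 changes was -6.29 (Benjamini-Hochberg adjusted p = 0.0126), with an adjusted p between 3.55e-15 and 0.0804 over its alternatives. For Hoxb8 it was -5.95 (adjusted p = 0.0399), with an adjusted p between 6.15e-04 and 0.337. Both rose less in KO, and both KO libraries lay above WT at EB5 and below WT at EB8.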

How the results depend on the processing

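Of 81 calls of a Hox gene in a comparison, the alternatives gave 1459 values, of which 1236 stayed past the threshold, 223 did not and 0 changed direction. The numbers of Hox genes called moved by over 1.5 times as follows, and the cause was not tested. With a pseudocount of 0.1 the calls of KO against WT were 2 at EB4, 1 at EB5 and 7 at EB8, those of EB8 against EB5 in WT 6 and those of the difference between the changes from EB5 to EB8 1. In that order this fit called 401, 298, 1621, 787 and 14 of all 16124 genes higher and 502, 298, 1886, 735 and 78 lower. With a pseudocount of 5 the calls of Hox genes were 20 for EB8 against EB5 in WT, 6 in KO and 4 for the difference between the changes. Over all 16124 genes that fit called 1056, 115 and 28 higher and 725, 68 and 197 lower. DESeq2 gave 1 Hox gene at EB4, 16 at EB5, 21 and 7 for EB8 against EB5 in WT and KO, and 5 for the difference between the changes. Of all 16124 genes it called 904, 812, 1397, 360 and 134 higher and 1173, 907, 1114, 301 and 354 lower. Fitting only the groups compared gave 0 Hox genes at EB5, 13 for EB5 against EB4 in KO and 20 for EB8 against EB5 in WT. These fits called 50, 68 and 798 of all 16124 genes higher and 22, 23 and 371 lower. At an adjusted p of 0.01, 31 of all 16124 genes were higher and 15 lower at EB5, and 783 and 1009 at EB8. For the difference between the changes these were 2 and 14. There no filter gave 19 higher and 107 lower of 27807 genes, and a mean of at least 50 gave 15 and 82 of 13046. Of Hox genes an adjusted p of 0.01 gave 0 at EB5, 9 at EB8 and 0 for the difference between the changes, which was 1 with no filter and 1 with a mean of at least 50. Leaving out 1 library at a time gave 0 to 1 at EB4, 0 to 3 at EB5, 5 to 15 at EB8, 6 to 11 for EB8 against EB5 in WT, 0 to 1 in KO and 0 to 1 for the difference between the changes. In such fits the lone library of a group is assumed to vary like the other groups.

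Nothing says that replicate numbers mark shared cells between genotypes. The correlation of same-numbered deviations between WT and KO was 0.335 in ES cells, -0.0575 at EB4, -0.209 at EB5 and -0.133 at EB8. Within a genotype it was 0.523 to 0.605 between the EB stages of WT and 0.233 to 0.422 between all stages of KO, but -0.179 to -0.048 between WT ES cells and WT EBs. This is a hint from the data that a number may follow a line across EB stages, with only 2 numbers per group. In KO the hint reaches back to ES cells, where the level of chromosome 11 in replicate 1 was also raised, at 0.22. The main fit has no term for such a line. With the replicate block 6 Hox genes were called at EB5 and 19 at EB8, and the block within genotype gave 20 and 26 for EB5 against EB4 in WT and KO, 16 and 1 for EB8 against EB5, and 0 and 2 for the differences between the changes. Over all 16124 genes the replicate block called 509 higher and 474 lower at EB5 and 1874 and 2207 at EB8. The block within genotype called 588 and 329 for EB5 against EB4 in WT, and 484 and 240 in KO. For EB8 against EB5 it called 1257 and 1104 in WT, and 163 and 136 in KO. For the differences between the changes it called 0 and 0 from EB4 to EB5, and 48 and 179 from EB5 to EB8. With the KO numbers exchanged, an alternative chosen after seeing the data, the replicate block gave 6 Hox genes at EB5 and 22 at EB8. That fit called 499 of all 16124 genes higher and 501 lower at EB5, and 1927 and 2227 at EB8. With 2 libraries per group the spread of single genes is poorly known, and genes at a few reads could not be tested.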
